A study of Mus musculus with 4 samples.

Results

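The NF-κB transcription factor family and its inhibitors were examined for SMAD4 binding in mouse alveolar macrophages (AMs). The members were chosen by name: the 5 Rel family genes Nfkb1, Nfkb2, Rel, Rela and Relb, the inhibitor genes Nfkbia, Nfkbib, Nfkbie and Nfkbiz, and Tnfaip3, 10 of the 26089 genes that have a curated RefSeq transcript. The choice was made with earlier results of these data known, so the shares below describe the members and test nothing. A peak was assigned to a member when its summit lay in the gene body or within 50 kb of a transcription start site (TSS) of the gene. A shared region was the union of peaks of both replicates that overlapped by at least 1 bp. The 10 windows held 54 peaks, 21 of replicate 1 and 33 of replicate 2, and 18 of the 10964 shared regions.

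AMs, the macrophages of the lung airspaces, were collected from wild-type C57BL/6J mice (9 weeks old) by bronchoalveolar lavage and cell sorting, with 200k cells to an aliquot. Sites bound by SMAD4 were mapped by HT-ChIPmentation, in which chromatin captured by the antibody is tagged with sequencing adapters by a transposase before it leaves the beads. There were 2 SMAD4 libraries, made with a combination of SMAD4 antibodies, and 2 input libraries from the same kind of cells without the antibody. No animal carried a transgene or a deletion, and there was no treatment or second condition. The inputs contribute only the control level that peak calling used. Nothing in the labels says whether the replicates came from separate mice, so the spread between them may be technical.

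NF-κB dimers are assembled from the Rel family proteins and are held in the cytoplasm by IκB proteins until the IκB kinase marks the IκB for degradation. Several IκB genes and Tnfaip3, which encodes the ubiquitin-editing enzyme A20, are themselves NF-κB targets, so the pathway restrains its own activity after a stimulus. SMAD4 is the common partner of the receptor-activated SMADs that carry TGFβ signals to the nucleus, and TGFβ is a niche signal on which AMs depend.

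Of the 10 members, 9 had at least 1 shared region in the window, beside 38.0% of all genes. All 10 members had a peak of replicate 1 and all 10 a peak of replicate 2, beside 45.3% and 51.9% of all genes. When each shared region was given to the gene with the closest TSS, 8 of 10 members were the nearest gene of a region, beside 20.9% of all genes. Nfkbib and Nfkbie were the exceptions. The member windows, 1078 kb in sum, held 16.7 shared regions per Mb, beside 5.87 per Mb over the merged windows of all genes. Tnfaip3 had the most shared regions, 5, a number reached by 3.12% of all genes. Nfkbia had 4 and Rel had 3, numbers reached by 5.55% and 9.9% of all genes. Nfkb1, Nfkb2, Rela, Relb, Nfkbib and Nfkbiz had 1 each, and Nfkbie had none.

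**Figure D1:**
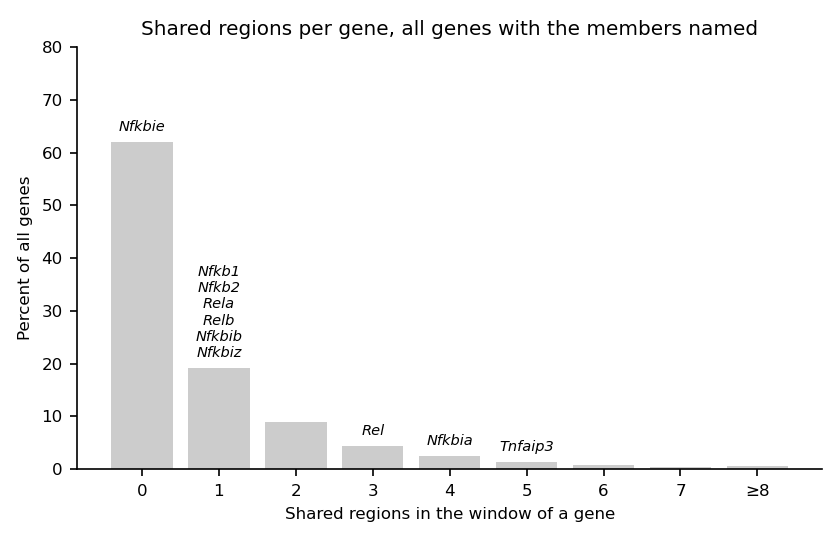
The bars give the percent of all 26089 genes (y axis) by the number of shared SMAD4 regions in the gene's window (x axis), and the members are named above the bar of their own number. Nfkbie stands with the genes that have none, 6 members stand at 1, and Rel, Nfkbia and Tnfaip3 stand at 3, 4 and 5.

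Strength was read from 2 values of each peak. Fold is the enrichment at the summit relative to control that the peak caller gave, and the pileup is the number of fragments stacked at the summit, recovered from the fold and the p-value. Pileups are given with an exact 95% Poisson interval, which covers counting error only. The middle of the member regions was like that of all shared regions: median folds were 6.82 in replicate 1 and 9.48 in replicate 2, the same to 3 digits as the medians over all 10964 regions. The members' folds ran from 3.14 to 37.0 in replicate 1 and from 4.51 to 38.8 in replicate 2. The smaller of the 2 folds placed 8 of the 18 member regions at or above the median of all regions and 4 in the top 10%, 2 at Tnfaip3 and 2 at Nfkbia. Fold was higher in replicate 2 at 16 of 18 member regions, and at 87.2% of all shared regions. The control background was 2.08 fragments in replicate 1 and 1.22 in replicate 2. A given pileup therefore has a higher fold in replicate 2. Median pileups over all shared regions were close, at 20 in replicate 1 and 21 in replicate 2. An SD of folds includes the difference in control and is not the spread of SMAD4 signal alone.

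**Figure D2:**
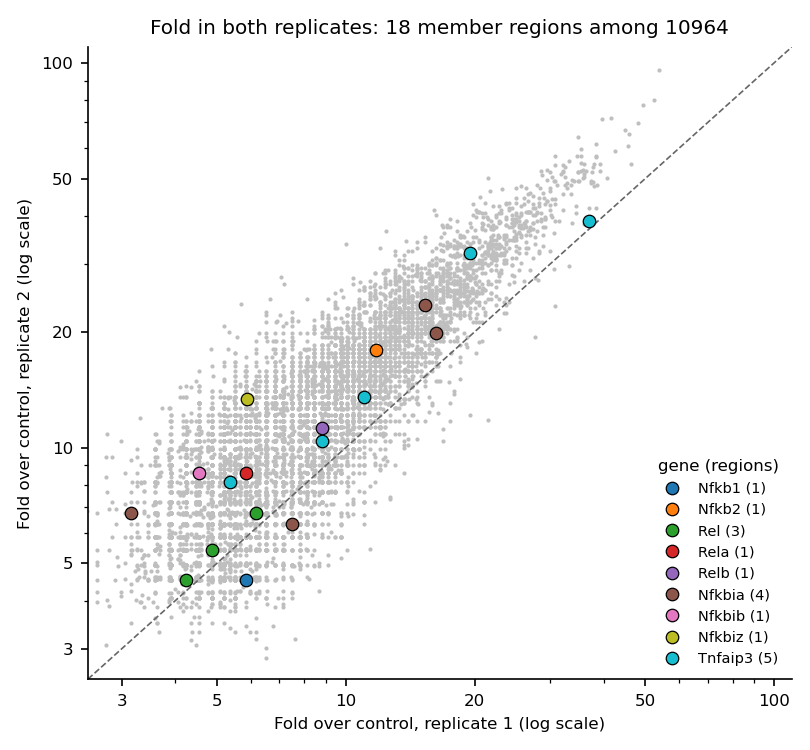
Fold over control in replicate 1 (x axis) and replicate 2 (y axis), both on log scales, for all 10964 shared regions (grey points) and the 18 member regions (coloured by gene), with the line of equal fold dashed. A Tnfaip3 region with folds of 37.0 and 38.8 lies near the top end of the cloud, and most other member regions lie in its middle or low part.

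The following sequences surround the summits of the 5 member regions with the highest smaller fold, of the Relb region, and of the intron 3 region of Rel and the Tnfaip3 promoter, which hold an NF-κB match near the summit. Each is the plus strand of mm10 (GRCm38), 201 bases centred on the mean of both summits, and capitals mark matches to the strings searched, which are described further on.
Tnfaip3 far upstream region (chr10:19053546-19053746): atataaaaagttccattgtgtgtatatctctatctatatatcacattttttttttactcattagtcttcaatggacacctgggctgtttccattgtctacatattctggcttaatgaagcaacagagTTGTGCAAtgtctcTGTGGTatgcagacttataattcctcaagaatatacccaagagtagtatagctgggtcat
Tnfaip3 intronic region (chr10:19009176-19009376): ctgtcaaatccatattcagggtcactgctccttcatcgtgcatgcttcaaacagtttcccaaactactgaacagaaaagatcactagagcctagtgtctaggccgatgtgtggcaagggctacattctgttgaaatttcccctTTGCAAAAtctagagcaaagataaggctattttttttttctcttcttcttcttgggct
Tnfaip3 promoter region (chr10:19015454-19015654): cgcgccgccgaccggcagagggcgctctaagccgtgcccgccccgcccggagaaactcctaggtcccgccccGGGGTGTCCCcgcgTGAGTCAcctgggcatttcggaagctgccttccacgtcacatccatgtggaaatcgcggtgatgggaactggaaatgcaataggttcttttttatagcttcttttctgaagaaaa
Nfkbia region past the gene end (chr12:55488606-55488806): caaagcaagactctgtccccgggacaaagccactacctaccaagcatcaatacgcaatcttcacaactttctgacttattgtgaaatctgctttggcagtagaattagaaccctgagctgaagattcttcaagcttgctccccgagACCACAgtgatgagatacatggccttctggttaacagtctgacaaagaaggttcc
Nfkbia downstream region (chr12:55473974-55474174): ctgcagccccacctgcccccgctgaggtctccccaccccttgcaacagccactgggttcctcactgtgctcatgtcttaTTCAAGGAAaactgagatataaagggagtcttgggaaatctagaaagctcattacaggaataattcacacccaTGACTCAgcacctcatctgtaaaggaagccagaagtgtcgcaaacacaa
Nfkb2 upstream region (chr19:46301338-46301538): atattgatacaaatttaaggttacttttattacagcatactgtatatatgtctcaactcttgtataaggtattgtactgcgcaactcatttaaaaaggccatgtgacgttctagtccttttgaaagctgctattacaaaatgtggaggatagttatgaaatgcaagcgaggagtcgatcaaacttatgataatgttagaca
Relb upstream region (chr7:19631152-19631352): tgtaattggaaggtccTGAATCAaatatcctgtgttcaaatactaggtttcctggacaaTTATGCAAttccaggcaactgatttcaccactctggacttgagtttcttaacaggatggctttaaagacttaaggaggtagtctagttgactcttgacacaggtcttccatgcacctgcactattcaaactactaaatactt
Rel intronic region (chr11:23754312-23754512): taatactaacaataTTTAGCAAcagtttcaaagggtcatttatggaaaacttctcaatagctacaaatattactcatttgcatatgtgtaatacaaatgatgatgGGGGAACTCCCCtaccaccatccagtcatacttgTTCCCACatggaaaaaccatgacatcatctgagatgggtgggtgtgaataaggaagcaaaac

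Among the Rel family genes, the strongest region lay at Nfkb2, which encodes the precursor of the p52 subunit of the non-canonical pathway. Its only shared region (chr19:46301233-46301684) was centred 3299 bp upstream of the gene. Fold was 11.8 in replicate 1 and 17.9 in replicate 2, 14.8 ± 4.31 (SD, n = 2), higher than at 84.2% of the other shared regions by the smaller fold. The summit pileup was 57 fragments (43.2 to 73.9) in replicate 1 and 50 (37.1 to 65.9) in replicate 2, so both libraries had a tall peak there. The control level at this summit was 3.92 fragments in replicate 1 and 1.85 in replicate 2, above the genome-wide backgrounds of 2.08 and 1.22, which lowers the fold for a given pileup. With 57 fragments the Nfkb2 region had about as many as the Tnfaip3 intronic region in replicate 1 (59), although its fold was lower. The summits of both replicates were 11 bp apart. A pair of further peaks of replicate 2 in the window were nearest to the neighbouring genes Cuedc2 and 2310034G01Rik.

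Relb encodes the partner of p52. Its shared region (chr7:19631067-19631535) was centred 1814 bp upstream of the TSS, within 1 kb past the end of the neighbouring gene Clptm1. Fold was 8.77 in replicate 1 and 11.2 in replicate 2, with pileups of 26 (17.0 to 38.1) and 31 (21.1 to 44.0). Both values were above the medians of all shared regions, and the smaller fold was higher than at 69.5% of them. Replicate 2 had another 2 peaks in the window, both nearest to Apoc2.

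Rel encodes c-Rel, a subunit with a transactivation domain that is prominent in blood cells. All 3 shared regions in its window lay inside the gene, at 2125 bp and 2944 bp from the TSS in intron 1 and at 16557 bp in intron 3. The region at 2944 bp had folds of 6.17 and 6.77 and pileups of 18 (10.7 to 28.4) and 14 (7.65 to 23.5). The region at 2125 bp had folds of 4.87 and 5.41 and pileups of 14 and 11. The region in intron 3 had folds of 4.22 and 4.51 and pileups of 12 (6.20 to 21.0) and 9 (4.12 to 17.1). All 3 were weak, below the median of all shared regions in the smaller fold, and their pileup intervals overlapped. In intron 3 the peaks of both replicates overlapped by 33 bp, with summits 279 bp apart, so this region is shared only in the sense of touching intervals. A further peak of replicate 2 alone lay 1273 bp from the TSS in intron 1 (fold 7.22, pileup 15). Outside the window, 50.8 kb upstream, another shared region had Rel as its nearest gene. Its folds were 4.77 in replicate 1 and 12.2 in replicate 2, with pileups of 15 and 26.

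Nfkb1 encodes the precursor of p50, the most common partner of the canonical dimer. Its single shared region (chr3:135628257-135628517) was in intron 6, 63173 bp from the TSS of a gene of 106893 bp. Fold was 5.85 in replicate 1 and 4.51 in replicate 2, with pileups of 17 (9.90 to 27.2) and 9 (4.12 to 17.1). This was one of the 2 member regions with the lower fold in replicate 2. The overlap of both peaks was 16 bp. Another peak of replicate 2 began 2 bp past the region's end, and a last one lay in intron 16 (fold 4.51). No peak of either replicate was within 50 kb of the Nfkb1 TSS.

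Rela encodes p65, the transactivating subunit of the canonical dimer. The shared region (chr19:5649496-5649842) was centred 1517 bp past the end of the gene and 12110 bp from its TSS. Fold was 5.85 in replicate 1 and 8.57 in replicate 2, with pileups of 17 and 18 and summits 8 bp apart. These values were close to the low middle of all shared regions: the smaller fold was higher than at 37.2% of them. A peak of replicate 2 alone lay between this region and the gene end (fold 6.32, pileup 13).

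Nfkbia encodes IκBα, the inhibitor that is degraded and resynthesised in each round of NF-κB activation. Its 4 shared regions all lay downstream of the gene on chromosome 12, and no other gene had a TSS in the window. The region next to the gene (chr12:55488336-55489298) was centred 703 bp past its end. Fold there was 15.3 in replicate 1 and 23.5 in replicate 2 (19.4 ± 5.79, SD, n = 2), with pileups of 46 (33.7 to 61.4) and 51 (38.0 to 67.1). The next region, 18.6 kb from the TSS (chr12:55473902-55474340), had folds of 16.2 and 19.9 (18.1 ± 2.55, SD, n = 2) and pileups of 49 (36.3 to 64.8) and 43 (31.1 to 57.9). Which of these was stronger depended on the replicate, so their folds did not differ beyond the spread. By the smaller fold they were above 91.2% and 92.6% of all shared regions.

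The other Nfkbia regions were weaker in both replicates. At 36.1 kb from the TSS the folds were 7.47 and 6.32, with pileups of 22 (13.8 to 33.3) and 13 (6.92 to 22.2). At 26.2 kb they were 3.14 and 6.77, with pileups of 12 (6.20 to 21.0) and 14 (7.65 to 23.5). The fold of 3.14 was the lowest of any member peak, at q = 0.0124 in the authors' list, and the control level there was 3.14 fragments against the background of 2.08. Inside the gene only replicate 2 had a peak, in intron 1, 812 bp from the TSS (fold 5.41, pileup 11). No peak of either replicate lay upstream of Nfkbia in the window.

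Nfkbib encodes IκBβ. The only shared region in its window lay 43.7 kb upstream, at the promoter of Hnrnpl, an RNA-binding protein gene whose TSS was 517 bp from the summit. Its folds were 4.55 and 8.57 and its pileups 13 and 18. With 8 other genes having a TSS in the Nfkbib window, this region is listed for the member by the distance rule alone. At the gene itself only replicate 2 had a peak, 1283 bp from the TSS in intron 1 (fold 4.96, pileup 10).

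Nfkbie encodes IκBε, and its window held no shared region. Replicate 1 had a peak at the promoter with its summit 144 bp upstream of the TSS (chr17:45555507-45555638), with a fold of 4.22 and a pileup of 12 (6.20 to 21.0), q = 2.98e-04. Replicate 2 had no peak at that place, and its only peak in the window was 845 bp from the TSS of Slc29a1 (fold 6.32). The fold of 4.22 was higher than 13.9% of the folds in the list of replicate 1, so this was a weak peak, and what replicate 2 had at the same bases was not tested. The sequence around the summit is shown because it holds an AP-1 match 9 bp and an NF-κB match 42 bp from the summit.
Nfkbie promoter peak of replicate 1 (chr17:45555496-45555616): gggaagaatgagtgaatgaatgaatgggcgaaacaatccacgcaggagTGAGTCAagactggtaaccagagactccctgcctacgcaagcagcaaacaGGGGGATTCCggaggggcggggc

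Nfkbiz encodes IκBζ, an atypical nuclear IκB that acts on a subset of NF-κB target genes. Its shared region in the window (chr16:55790282-55790843) was 20885 bp past the end of the gene and 31.6 kb from the inner of its 2 TSSs. Fold was 5.89 in replicate 1 and 13.4 in replicate 2 (9.63 ± 5.29, SD, n = 2), the widest relative spread of the member regions. The pileups were closer, at 28 (18.6 to 40.5) and 33 (22.7 to 46.3). The control level was 3.92 fragments in replicate 1, against a background of 2.08, and 1.54 in replicate 2, against 1.22. Replicate 2 alone had a peak at the inner promoter, 93 bp upstream of that TSS (fold 7.22, pileup 15, q = 5.22e-10). Beyond the window, 3 further shared regions had Nfkbiz as their nearest gene, at 67.6 kb (folds 12.7 and 20.8), 88.1 kb (8.12 and 11.3) and 131 kb (5.80 and 15.8), all downstream. The strongest of these exceeded the region in the window in both replicates.

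Tnfaip3 had the strongest SMAD4 region of the group. It lay 38.2 kb upstream of the gene (chr10:19053209-19054225), with folds of 37.0 in replicate 1 and 38.8 in replicate 2 (37.9 ± 1.24, SD, n = 2). The summit pileup was 113 fragments (93.1 to 136) in replicate 1 and 85 (67.9 to 105) in replicate 2, with q-values of 9.25e-146 and 3.36e-119. The folds were closer than these pileups because the control level was 2.08 fragments in replicate 1 and 1.22 in replicate 2. Both replicates put this region above every other member region, and their summits were 3 bp apart. By the smaller fold it ranked 27 of 10964 shared regions, and 0.199% of all genes had a region at least as strong in their window. The closest TSS was not that of Tnfaip3 but of Gm51814, a long non-coding RNA gene, 9133 bp away.

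The second strongest member region was in an intron of Tnfaip3 (chr10:19008908-19009783), 2687 bp from the inner of its 2 TSSs. Fold was 19.5 in replicate 1 and 32.0 in replicate 2 (25.8 ± 8.86, SD, n = 2), with pileups of 59 (44.9 to 76.1) and 70 (54.6 to 88.4). It exceeded both strong Nfkbia regions in fold in each replicate, and the smaller fold was higher than at 95.8% of all shared regions. The promoter region (chr10:19015428-19015795), centred 144 bp upstream of the outer TSS, had folds of 8.77 and 10.4 and pileups of 26 (17.0 to 38.1) and 22 (13.8 to 33.3). It was the one shared region at a member's own promoter. Its folds were lower than those of the intronic region in both replicates.

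The last Tnfaip3 regions were further upstream. The region 18.5 kb upstream had folds of 5.37 and 8.12 and pileups of 16 and 17. The region 47.0 kb upstream (chr10:19061839-19062980) was at the promoter of Gm51814, 406 bp from its TSS, with folds of 11.0 and 13.5 and pileups of 33 (22.7 to 46.3) and 29 (19.4 to 41.6). Of the 5 regions in the window, 3 were nearest to Tnfaip3 and 2 to Gm51814. Beyond the window, a further shared region nearest to Tnfaip3 lay 80.4 kb from its TSS, downstream (folds 8.77 and 7.67). A peak lists where SMAD4 was bound and not which gene the site acts on, so the assignment of the upstream regions to either gene was not tested.

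**Figure D3:**
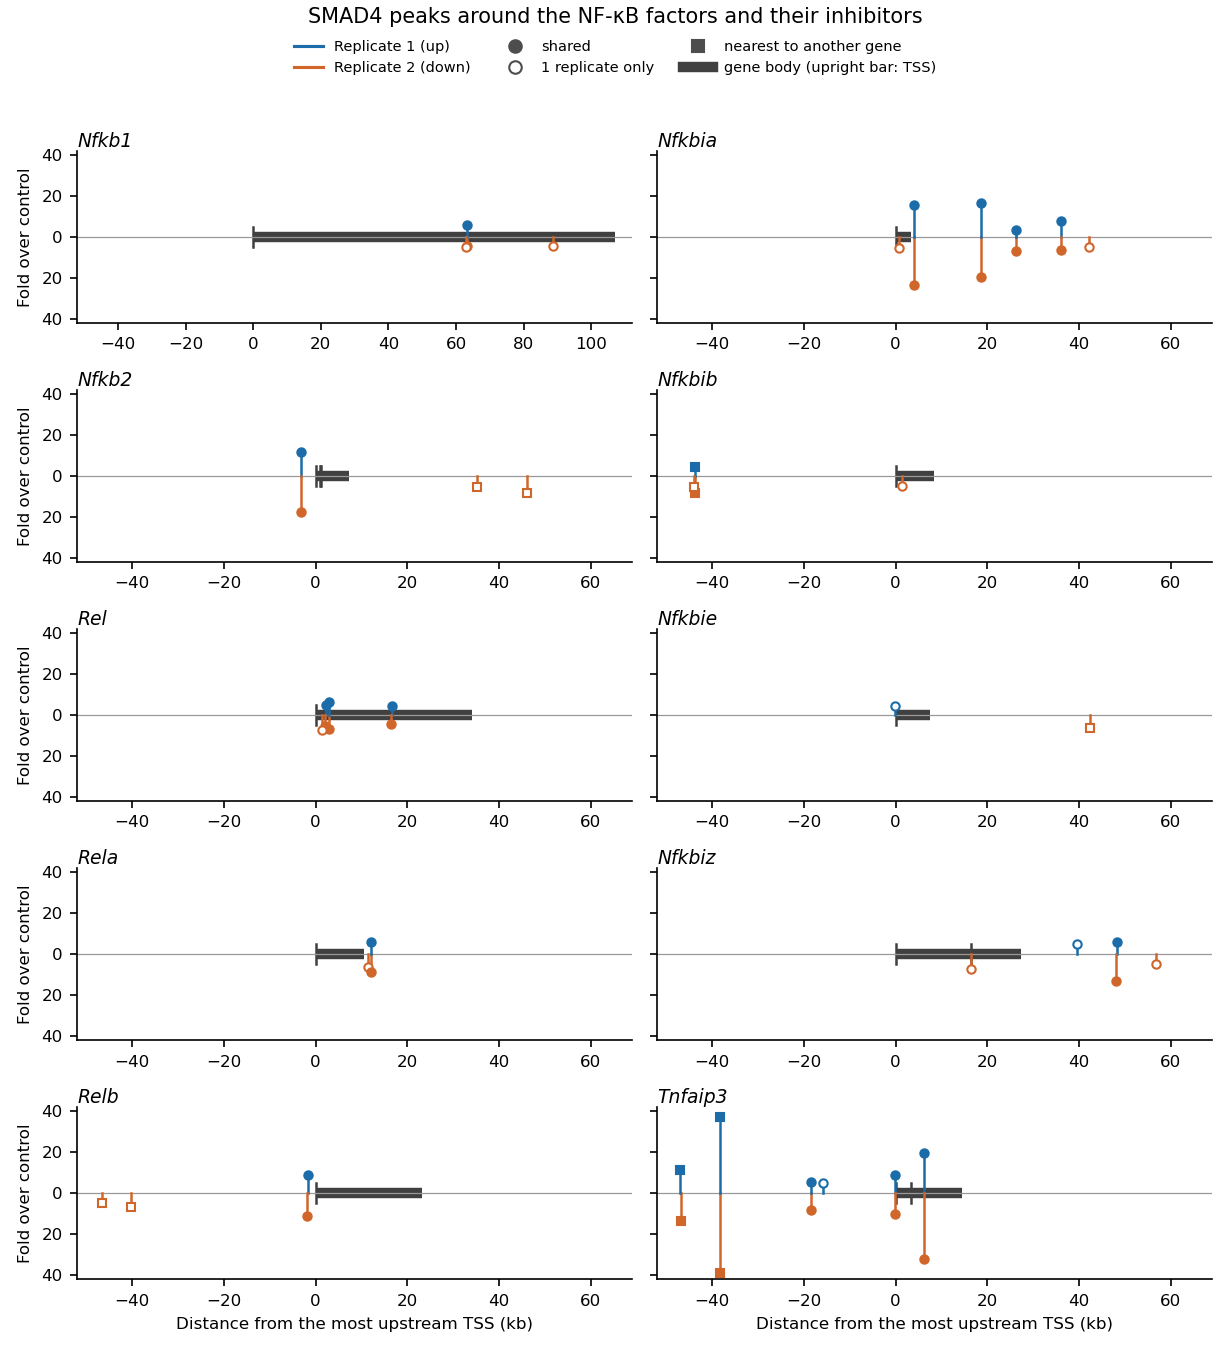
Each panel shows 1 member, with the fold over control of every peak in its window (y axis, replicate 1 upward and replicate 2 downward) against the distance of the summit from the most upstream TSS in kb (x axis, downstream to the right). Filled symbols are shared peaks, open symbols peaks of 1 replicate, squares peaks nearest to another gene, and the dark bar is the gene body; the tallest peaks stand upstream of and within Tnfaip3 and downstream of Nfkbia.

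Across the group, 15 of the 18 shared regions were nearest to the member itself, and the other 3 to Hnrnpl or Gm51814. By the mean summit, 8 regions were intergenic, 5 intronic, 3 in a promoter (from 1 kb before to 100 bp after a TSS) and 2 within 1 kb past a gene end. Over all shared regions 40.5% were intergenic, 49.3% intronic, 6.42% in promoters and 1.30% at gene ends. The median distance from the member's TSS was 17542 bp, which the 50 kb rule bounds outside gene bodies. Over all shared regions the median distance from the nearest TSS was 18040 bp, without such a bound. These medians were taken under unlike rules and cannot be compared directly.

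**Figure D4:**
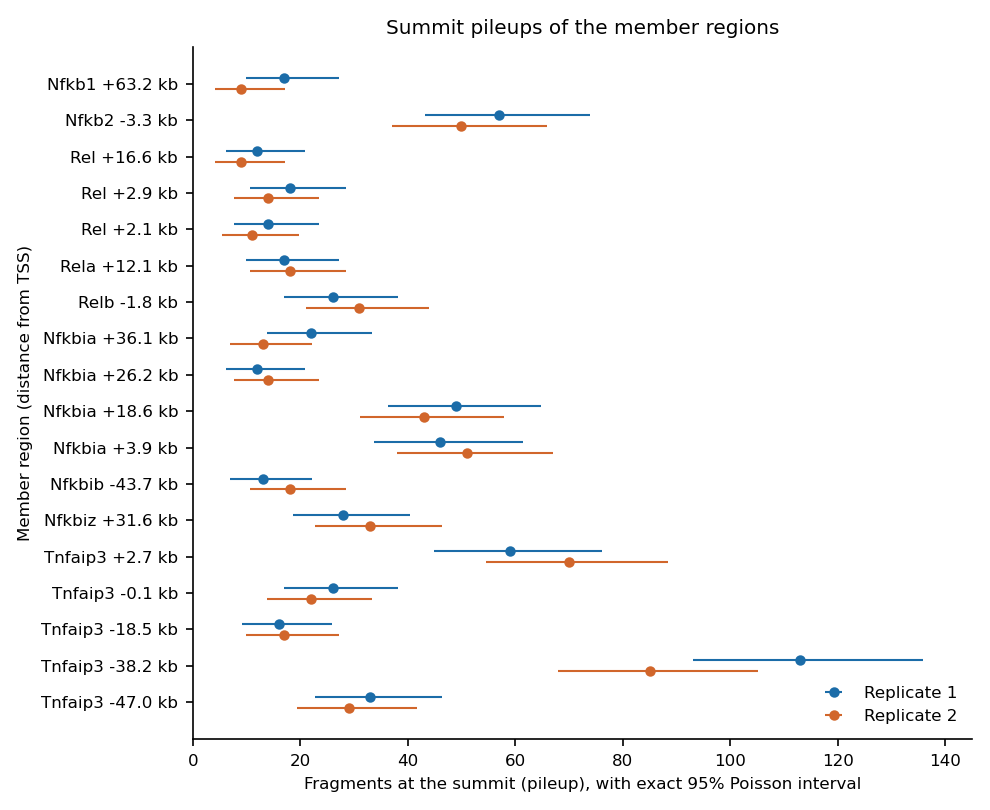
Summit pileups in fragments (x axis) of the 18 member regions (y axis, named by gene and distance from the nearest TSS of that gene) in replicate 1 and replicate 2, with exact 95% Poisson intervals as bars. The intervals of both replicates overlap at every region, and the region 38.2 kb upstream of Tnfaip3 has 113 and 85 fragments.

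The remaining 18 peaks in the windows were found in 1 replicate, 3 in replicate 1 and 15 in replicate 2. Their folds ran from 4.22 to 8.57 and their pileups from 9 to 18 fragments, so none reached the stronger shared regions. Of these, 12 were nearest to the member and 6 to another gene. At the members 85.7% of the peaks of replicate 1 and 54.5% of those of replicate 2 were shared, beside 69.4% and 59.2% over the whole lists. At Rel, Nfkbia, Nfkbib, Nfkbie and Nfkbiz the peak closest to a TSS, within 1283 bp of it, was one of these.

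The sequence under the summits was searched for 11 strings on both strands, within 100 bp on each side of the mean summit. The C/EBP string TTGCNNAA was the most frequent, in 7 of the 18 member regions (38.9%), beside 40.8% of all shared regions and 8.76% of windows 1 kb to each side. The members with this match were Rel (2 regions), Relb, Nfkbia, Nfkbiz and Tnfaip3 (2 regions). In the strongest region, upstream of Tnfaip3, the match was TTGCACAA on the minus strand. In the Tnfaip3 intronic region it was TTGCAAAA. C/EBP factors, PU.1 and RUNX1 are known lineage factors of macrophages.

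The RUNX string TGTGGT was in 6 of 18 member regions, beside 26.4% of all, and the AP-1 string TGANTCA in 4 of 18, beside 12.3%. The STAT string TTCNNNGAA was also in 4 of 18, beside 8.07% of all. The ETS core AGGAAGT was in 2 of 18, beside 20.4%, and the longer PU.1 string GAGGAAGT, which contains the ETS core, in none, beside 8.01%. The RBPJ string GTGGGAA was in 1 region, beside 4.14% of all. The SMAD string GTCTGG was in none of the member windows, beside 11.2% of all shared regions and 10.4% of the windows to each side, and neither the SMAD palindrome GTCTAGAC nor the E-box CACGTG was found, beside 0.465% and 3.65% of all. No shorter or looser SMAD string was searched, so other forms of the SMAD site in these windows were not counted. With 18 regions, shares of this size rest on few windows and were not tested. In 4 regions, among them the Nfkb2 region and the Hnrnpl promoter, no searched string was found, beside 20.2% of all shared regions.

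The NF-κB decamer was searched as GGGRNNYYCC, where R is A or G, Y is C or T, and N is any base. It was in 2 of 18 member regions, beside 2.98% of all shared regions and 2.85% of the windows to each side. In the Tnfaip3 promoter the match GGGGTGTCCC lay 23 bp from the mean summit, and next to it was the AP-1 match TGAGTCA. Both strings together were in this 1 member region and in 0.347% of all shared regions. The pair was not among the planned counts, which were of single strings, so these values only describe it. In intron 3 of Rel the overlapping matches GGGGAACTCC and GGGAACTCCC lay 9 bp and 10 bp from the mean summit. There the 2 replicates' own summits were 279 bp apart, and the match was outside the window of either summit taken alone. The single-replicate peak in intron 1 of Nfkbia also had a decamer match, GGGAAACCCC, 38 bp from its summit.

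**Figure D5:**
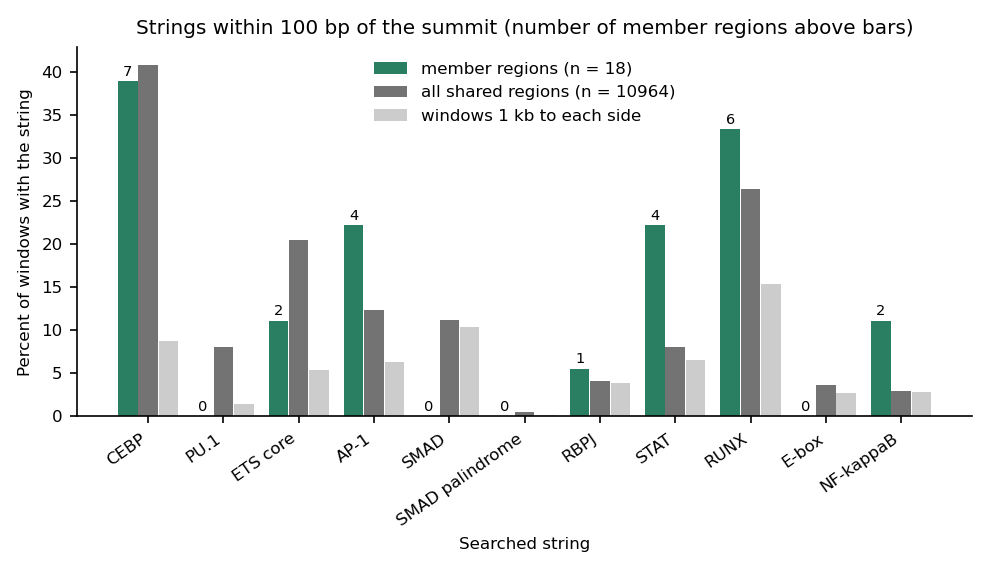
Percent of windows with each searched string within 100 bp of the summit (y axis) for the 18 member regions, all 10964 shared regions and windows 1 kb to each side; numbers above the bars count member regions. The C/EBP string is at 38.9% of member regions and 40.8% of all regions, while the PU.1, SMAD and E-box strings are in no member window.

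RefSeq promoter sequences (GRCm38.p6, 250 bases before to 50 after a TSS) were available for 7 members, Nfkb2, Rel, Rela, Nfkbia, Nfkbib, Nfkbie and Tnfaip3. The NF-κB decamer was in the promoters of 5 of these 7, beside 9.55% of the 27025 genes with a promoter sequence: Nfkb2, Rel, Nfkbia, Nfkbie and Tnfaip3. Only the Tnfaip3 promoter among them had a shared SMAD4 region, and the Nfkbie promoter had a peak of replicate 1. A string match is a description of the bases and not a measure of NF-κB binding.

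The other genes of the pathway were read from a list of 42. Of these, 28 had a shared region in the window (66.7%), beside 38.0% of all genes, and 16 were nearest to one, beside 20.9%. Partners of A20 and other restraints of the pathway had a region in 12 of 13 windows, with 2.23 regions per window, but 7 of these 13 genes were the nearest gene of a region. Tnip2, Itch, Otulin, Irak3 and Pdlim2 had only regions nearest to other genes. Kinases and their scaffold had a region in 7 of 11 windows, and 6 were nearest to one. Adaptors and ubiquitin ligases had one in 8 of 16 windows, and 3 were nearest to one. Of the atypical IκB genes, 1 of 2 had a region in the window and neither was nearest to one. The mean over the 10 members was 1.8 regions per window, beside 0.798 over all genes.

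The 5 pathway genes with the strongest region nearest to their own TSS were Rnf11, Tank, N4bp1, Map3k8 and Ikbkb. Rnf11, which encodes a subunit of the A20 complex, had folds of 22.7 and 35.2. Tank, which encodes a TRAF-binding adaptor that restrains the pathway, had folds of 19.2 and 26.2. N4bp1, a suppressor of NF-κB signalling, had folds of 18.8 and 28.9, and 6 shared regions in all. For Map3k8, a kinase activated when the NF-κB precursor that holds it is degraded, the folds were 18.5 and 33.8 at a region 64917 bp from the TSS, outside the 50 kb window. Ikbkb, which encodes a catalytic subunit of the IκB kinase, had folds of 13.3 and 22.6. By the same nearest-gene rule the strongest Tnfaip3 region was the intronic one (19.5 and 32.0), which Rnf11 exceeded in both replicates and Map3k8 in replicate 2 alone.

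The SMAD4 libraries had 16369 peaks in replicate 1 and 19015 in replicate 2. Peaks record binding and not expression, so the cell type could be checked only by where peaks lay. All 7 AM marker genes had a shared region in the window, 33 in sum, with the strongest at Chil3 (folds 45.8 and 65.4) and Pparg (33.8 and 49.6). The best regions nearest to Siglecf (4.18 and 10.2) and Ear2 (8.12 and 5.41) were much weaker. Among marker genes of other lineages, Scgb1a1 had 5 shared regions in the window and Alb had 1, while Cd3e, Sftpc, Cdh5 and Epcam had none. The strongest region nearest to Scgb1a1 lay 76 bp from its TSS, with folds of 7.47 and 11.3. The check therefore separates the lineages only in part.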

How the data were processed

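Peak lists of 2 SMAD4 HT-ChIPmentation libraries of AMs were analysed; values of the 2 inputs alone were not used. After adapter trimming (Cutadapt), the authors aligned read pairs to mm10 (Bowtie2), filtered alignments (SAMtools), and called peaks with MACS3 in each SMAD4 sample, using input controls and a q-value limit of 0.05. Each peak that the authors deposited has a fold ratio over control, −log10 p-values and q-values, and a score that was not used. The pileup of each summit was solved from fold and p; all peaks gave whole numbers within 0.00138 fragments. Read totals were not used, so depth is known only through pileups and control backgrounds of 2.08 and 1.22 fragments. MACS3 treats positions as Poisson, so q does not carry the spread between mice. Paralogous or repeated sequence is thinned by the mapping quality filter.

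The labels and the study's methods name different suppliers for the SMAD4 antibodies. The inputs have no label that pairs them with a SMAD4 library.

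Gene models were 45657 curated RefSeq transcripts (GRCm38.p6, the assembly that mm10 names); predicted transcripts were left out. Coordinates are 1-based. Features followed the HOMER definitions. Strings were searched in 201-bp windows, and in windows of the same length 1 kb to each side. All comparisons are descriptions: the design has no second condition, and no test was run. Alternatives were other windows, overlap rules, peak limits, transcript sets, string windows, and each replicate alone. All 10 members were described; of the other pathway genes, the 5 with the highest smaller fold at a region nearest to their own TSS were named. The members and lists were chosen with earlier results of these data known. Python 3.11.15 was used, with numpy, pandas, scipy and pysam, and the scripts were tested on simulated data. A marker gene of another lineage is not reported here.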

Additional observations from a re-analysis of the deposited data

How the results depend on the processing

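The count of members with a shared region in the window was 9, and stayed within 1.5 times that under every alternative but the gene body alone, where it was 3 (Nfkb1, Rel and Tnfaip3). With a window of 10 kb it was 6, and Rela, Nfkbib, Nfkbie and Nfkbiz had none. With 100 kb it was 10, beside 53.8% of all genes. A 50% reciprocal overlap also left Nfkb1 without a region, and a fold of at least 5 in each peak left out Nfkb1 and Nfkbib. The window width moved most other counts. With 10 kb there were 9 shared regions, 10 peaks of replicate 1 and 15 of replicate 2 at the members, 18 pathway genes with a region, and 19.2% of all genes with one. With 100 kb there were 37 shared regions, 46 peaks of replicate 1 and 55 of replicate 2. In gene bodies alone there were 5 shared regions, 5 and 11 peaks, 10 pathway genes, and 12.3% of all genes with a region.

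Leaving out 1 replicate and taking every peak of the other gave 21 to 33 regions in the member windows (18 as reported), 10 members with one, 9 members nearest to one, 30 to 35 pathway genes, and 45.3% to 51.9% of all genes with one. The share of all genes nearest to a region was then 27.0% to 30.6%. Counts of strings moved by over 1.5 times in 13 of 44 alternatives, since most rest on few regions; the C/EBP count stayed between 5 and 8. The NF-κB count was 1 with the summit of either replicate and 4 within 200 bp, and the SMAD string, absent within 100 bp, was in 4 regions within 200 bp. Within 50 bp the STAT, RUNX and AP-1 counts were 1, 2 and 2, beside 4, 6 and 4 as reported. Within 200 bp they were 5, 7 and 4. With the summit of replicate 2 the STAT count was 2. Of 68 alternatives of the other counts, 15 moved by over 1.5 times. No paired analysis was possible because the result comes from no test and the labels give no replicate numbers. Depth limits the weak peaks most: a pileup of 9 has a 95% counting interval of 4.12 to 17.1.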
